A study of Mus musculus with 2 samples.

Results

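Long noncoding RNAs (lncRNAs) are transcripts that are not translated into protein, and many start from promoters of their own. The promoter regions described here are DNase-seq peaks of newborn mouse heart that lie at a transcription start site (TSS) of such a gene and away from every protein-coding start. A peak was taken if it lay on chromosomes 1 to 19, if its centre was within 500 bp of a TSS of a GENCODE vM21 lncRNA gene (5 gene types), and if the centre was more than 2 kb from every TSS of a protein-coding gene. Replicate 1 held 2060 such peaks among 164847 peaks in all, and replicate 2 held 1903 among 144867. Of these, 1538 peaks of replicate 1 (74.7%) and 1542 of replicate 2 (81.0%) overlapped one another by at least 1 bp and formed 1495 regions found in both libraries. Among all peaks on chromosomes 1 to 19, 70.2% of replicate 1 and 79.9% of replicate 2 had any peak of the other library as partner. Counted in this way, the shares at lncRNA promoters were 75.7% and 82.1%, near this background. No measured height entered the choice of the regions, except that each peak had to be called in both libraries.

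Both libraries came from heart tissue of mice of strain B6NCrl at postnatal day 0, with no treatment named. They form 1 group, and their labels give separate biosamples, the same donor label and no recorded sex. An SD over the 2 libraries is therefore only the difference between these samples, and part or all of it may be technical. The labels state no question and no contrast between groups. With 2 libraries the smallest two-sided p of a permutation of signs is 0.5, so the comparisons with other peaks below carry no test, and none of them shows a feature to be particular to lncRNA promoters.

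An active promoter holds a stretch free of nucleosomes just upstream of the TSS, where transcription factors and RNA polymerase bind, and DNase I cuts this exposed DNA more readily than DNA wrapped on nucleosomes. Many promoters of broadly expressed genes lie in CpG islands, stretches rich in CG dinucleotides and in GC boxes, while promoters of tissue-restricted genes more often lack them. lncRNAs fall into several classes: lincRNAs lie between genes, antisense and sense-intronic lncRNAs overlap a gene on the opposite or the same strand, and others serve as hosts from whose introns or exons microRNAs (miRNAs) and small nucleolar RNAs (snoRNAs) are cut.

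Sequences of 7 regions are shown, each the highest of its class, so the low regions of the set are not among them. They are the highest region of 4 gene types and the highest near a gene of the heart list described further on. The others are the highest of the lncRNAs studied in heart or muscle and the highest of a list of widely studied lncRNAs. Each is the 150 bp peak of replicate 1 on the strand of the lncRNA, read from RefSeq GRCm38.p6, identical in primary sequence to the mm10 build of the files. Capitals mark matches to 15 motifs searched on both strands. The peaks lie at chr5:25529676-25529825 (1700096K18Rik, plus strand), chr2:27540256-27540405 (Gm13421, plus strand), chr16:26041436-26041585 (AU015336, minus strand), chr12:33139236-33139385 (F730043M19Rik, minus strand), chr3:88178076-88178225 (1700113A16Rik, minus strand), chr5:119575196-119575345 (Tbx3os1, minus strand) and chr3:123508436-123508585 (Snhg8, minus strand). AU015336 lies within the body of P3h2 on the same strand, and the other 6 lie outside protein-coding gene bodies.
1700096K18Rik: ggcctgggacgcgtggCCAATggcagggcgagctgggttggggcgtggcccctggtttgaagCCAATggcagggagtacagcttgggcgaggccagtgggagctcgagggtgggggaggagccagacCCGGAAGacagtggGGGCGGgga
Gm13421: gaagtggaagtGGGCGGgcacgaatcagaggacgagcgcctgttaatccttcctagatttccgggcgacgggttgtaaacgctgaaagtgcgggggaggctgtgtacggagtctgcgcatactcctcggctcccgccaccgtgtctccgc
AU015336: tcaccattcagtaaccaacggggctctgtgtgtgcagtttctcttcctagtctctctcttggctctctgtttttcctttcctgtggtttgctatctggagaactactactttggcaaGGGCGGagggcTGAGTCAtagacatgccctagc
F730043M19Rik: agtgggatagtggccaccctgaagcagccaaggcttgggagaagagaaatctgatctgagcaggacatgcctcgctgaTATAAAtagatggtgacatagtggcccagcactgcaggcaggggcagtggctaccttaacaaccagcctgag
1700113A16Rik: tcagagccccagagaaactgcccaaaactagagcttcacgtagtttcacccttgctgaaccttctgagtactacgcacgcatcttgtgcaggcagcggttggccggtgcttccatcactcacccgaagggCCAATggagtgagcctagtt
Tbx3os1: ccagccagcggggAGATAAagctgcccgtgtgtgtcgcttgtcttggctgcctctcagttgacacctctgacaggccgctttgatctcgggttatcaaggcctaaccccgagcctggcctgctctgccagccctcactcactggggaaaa
Snhg8: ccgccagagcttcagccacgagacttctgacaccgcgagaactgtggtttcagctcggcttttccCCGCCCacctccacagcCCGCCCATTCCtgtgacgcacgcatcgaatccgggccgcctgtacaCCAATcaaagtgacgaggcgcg

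The peaks of Gm13421 and Snhg8 hold 15 CG dinucleotides each, and that of F730043M19Rik holds 1. In 1700096K18Rik the capitals are 2 CCAAT boxes, an ETS motif (CCGGAAG) and a GC box (GGGCGG). Snhg8 holds 2 GC boxes, a CCAAT box and a TEAD motif (GGAATG) that overlaps one of the GC boxes. Gm13421 holds a GC box, and AU015336 a GC box and an AP-1 motif (TGACTCA). F730043M19Rik holds a TATA box (TATAAA), 1700113A16Rik a CCAAT box and Tbx3os1 a GATA motif (AGATAA). A match is a description of letters, not a bound site.

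The tissue label was checked at promoters of marker genes. Both libraries had promoter peaks at all 12 markers of cardiomyocytes, endothelium and fibroblasts, among them Tnnt2, Myh6, Cdh5 and Tcf21. Of 4 markers of other tissues, Alb, Myod1 and Ptprc had none, and Neurod1 had a peak of value 16 in replicate 2 alone. The tissue holds several cell types, so a low peak value can come from few cells of a type or from less accessibility per cell, and these cannot be told apart. The sequencing depth of the libraries is unknown.

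The deposited files give each peak a whole-number value that is at most 150, the peak's length in bp, with no unit stated. At lncRNA promoter regions the lowest and highest values were 5 and 132 (replicate 1) and 4 and 126 (replicate 2). Their medians were 51 and 47 (mean 49, SD 2.83, n = 2 libraries). Distal peaks, whose centres lie more than 1 kb from any TSS, had medians of 40 and 36, and protein-coding promoter peaks had medians of 68 and 64. lncRNA promoters thus lay between the other 2 kinds of peak in each library. As a percentile of all peaks of the same library, the median was 72.2 and 69.2 at lncRNA promoters, 85.7 and 84.6 at protein-coding promoters, and 57.1 and 52.6 at distal peaks. Above the 90th percentile of a library's peaks lay 18.2% and 16.0% of the lncRNA promoter peaks, against 41.8% and 40.6% at protein-coding promoters. At distal peaks the shares were 6.87% and 5.11%. All peaks with a partner had median percentiles of 63.3 and 59.4, and 14.2% and 12.6% of them lay above the 90th. Peaks at lncRNA TSSs within 2 kb of a protein-coding TSS, which were not counted as members, had medians of 72 and 67.

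The regions ranked alike in the 2 libraries, with a Spearman rho of 0.919 and a Pearson r of 0.935 across the 1495 regions. This is a description across regions of the same 2 libraries. The value was higher in replicate 1 at 1031 regions, higher in replicate 2 at 409 and equal at 55, with a median difference of -5. In all, 34 regions differed by more than 30 percentile points. The 5 with the widest gap were all higher in replicate 1, with values of 50 and 20 at 2310016D23Rik, 43 and 19 at Gm33570, 45 and 22 at 2610027K06Rik, 54 and 27 at AI427809, and 55 and 28 at Gm6249. All 5 had little CpG (CpG-poor as defined below), as did 1253 of the 1495 regions.

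**Figure D1:**
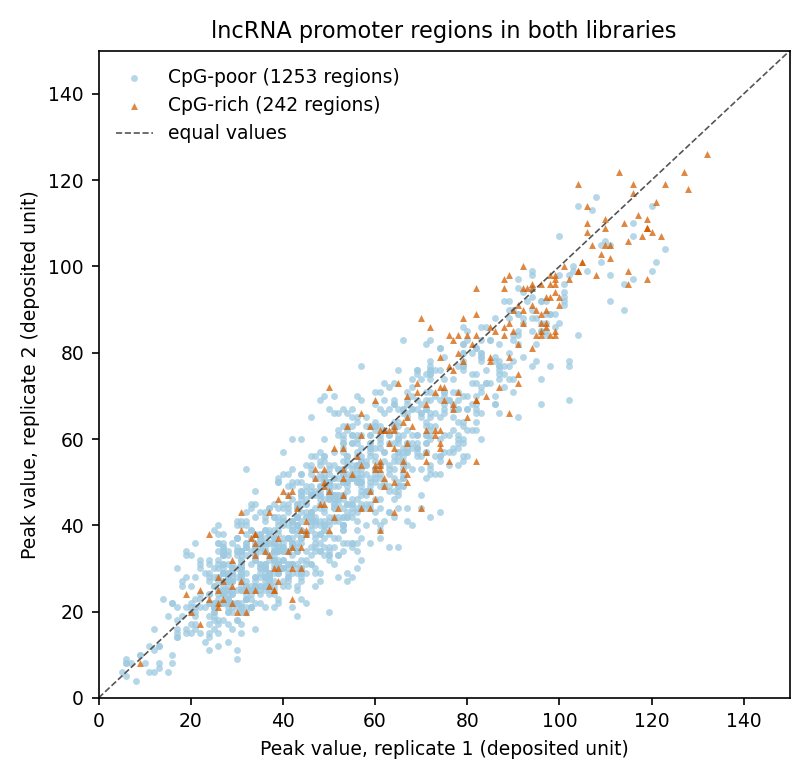
Deposited peak value of each of the 1495 lncRNA promoter regions in replicate 1 (horizontal axis) and replicate 2 (vertical axis). Triangles are the 242 CpG-rich regions and circles the 1253 CpG-poor ones, and the points follow the dashed line of equal values, with 1031 regions higher in replicate 1.

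Whether a peak was found again depended on its height. The peaks of replicate 1 were split by value at 24, 35 and 53, which gives 4 classes of about equal size. With a partner were 37.2% of lncRNA promoter peaks in the lowest class and 57.5%, 82.0% and 96.9% in the following ones. Distal peaks of the same classes gave 43.2%, 56.8%, 82.7% and 97.6%, and protein-coding promoters gave 37.9%, 55.5%, 77.8% and 97.3%. In replicate 1 the lncRNA promoter share was thus below the distal share in the lowest class and above the protein-coding share in the third. Elsewhere it was close to both. In replicate 2 the shares were 46.4%, 74.2%, 90.7% and 97.9% at lncRNA promoters, 59.0%, 74.2%, 93.1% and 99.04% at distal peaks, and 41.2%, 62.7%, 84.2% and 97.6% at protein-coding promoters. There lncRNA promoters were above protein-coding promoters in each class, least so in the highest, and furthest below distal peaks in the lowest. Qualifying peaks without a qualifying partner had median values of 28 and 23.

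lncRNA promoters held less CpG than protein-coding promoters and more than distal peaks. The ratio of observed to expected CpG in 500 bp around the peak had medians of 0.345 and 0.346 in the 2 libraries, against 0.728 and 0.726 at protein-coding promoters and 0.221 in each library at distal peaks. A window with a ratio of at least 0.6 and a GC content of at least 50% was called CpG-rich. By this measure 242 of the 1495 regions (16.2%) were CpG-rich, against 64.6% of protein-coding promoter peaks and 1.90% and 1.88% of distal peaks. Of all peaks with a partner 16.0% and 15.9% were CpG-rich, so the share at lncRNA promoters was near this background. Among lncRNA TSS peaks near a protein-coding TSS the share was 72.1% and 72.4%.

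Height followed CpG content. CpG-rich lncRNA promoter peaks had median values of 72 and 67, and CpG-poor ones 49 and 44. At CpG-poor protein-coding promoters the medians were 50 and 46, and at CpG-poor distal peaks 40 and 36. CpG-poor lncRNA promoters were thus slightly lower than CpG-poor protein-coding promoters in each library, and higher than CpG-poor distal peaks. Among CpG-rich peaks the order was protein-coding promoters (81 and 77), lncRNA promoters (72 and 67) and distal peaks (55 and 52). Of the 247 regions whose mean percentile exceeded 90, 107 were CpG-rich and 140 CpG-poor, and of the 408 regions below a mean percentile of 50, 34 were CpG-rich.

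**Figure D2:**
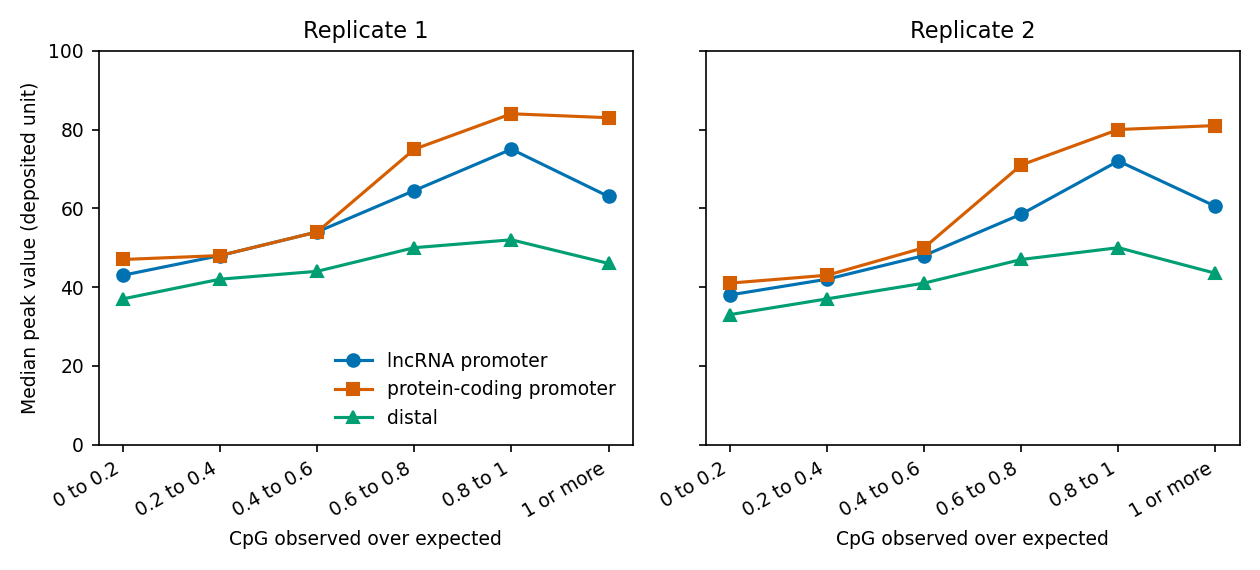
Median deposited peak value (vertical axis) in bins of CpG observed over expected (horizontal axis) for peaks found in both libraries, by replicate. Below a ratio of 0.2 the lncRNA promoter line is lower than the protein-coding line (43 and 38, against 47 and 41). At ratios from 0.2 to 0.6 the lncRNA promoter line runs within 2 units of the protein-coding line, and above 0.6 it falls below it and stays above distal peaks. The last lncRNA bin holds 20 and 24 peaks.

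A region was found at 1264 of the 7264 lncRNA genes that have a TSS more than 2 kb from protein-coding TSSs (17.4%). Taken alone, replicate 1 gave 21.3% and replicate 2 gave 19.8% (SD 1.06 points). Promoter peaks were present in both libraries at 13535 of 20807 protein-coding genes (65.1%). CpG-rich lncRNA genes had a region in 196 of 385 cases (50.9%) and CpG-poor ones in 1068 of 6879 (15.5%). The shares for protein-coding genes were 93.2% and 38.2%, so the lncRNA genes lay below them within each class. Genes annotated as processed transcripts had a region in 150 of 474 cases (31.6%), lincRNAs in 804 of 4768 (16.9%), antisense genes in 279 of 1730 (16.1%) and sense-intronic genes in 29 of 282 (10.3%). A gene with several annotated TSSs has more chances to be counted, and the share was 13.8% for genes with 1 TSS and 30.4% for genes with 2 or more.

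Assigned to the nearest TSS, the 1495 regions belonged to 1244 genes, of which 1032 had 1 region, 184 had 2 and 28 had more. There were 928 regions at lincRNAs, 327 at antisense genes, 205 at processed transcripts, 33 at sense-intronic genes and 2 at bidirectional-promoter lncRNAs. Median values were 50.5 and 45 at lincRNAs, 53 and 48 at antisense genes, 56 and 51 at processed transcripts, and 49 and 42 at sense-intronic genes. The interquartile range of all lncRNA promoter peaks of replicate 1 was 36 to 70, wider than the differences between types. The highest sense-intronic region, at AU015336, had 82 and 75, and the 2 bidirectional-promoter lncRNAs were F730043M19Rik (48 and 52) and Gm48814 (46 and 43). Processed transcripts were CpG-rich most often (25.9% of regions), followed by lincRNAs (15.7%), antisense genes (12.8%) and sense-intronic genes (3.03%). At 45 regions TSSs of 2 or more lncRNA genes were within reach, and 41 regions had a second lncRNA TSS on the opposite strand.

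The peaks sat just upstream of the annotated start. In replicate 1 the median centre was 44 bp upstream (-44) and 63.7% of peaks lay upstream, and in replicate 2 the median was -42 and the share 63.0%. Protein-coding promoter peaks had a median of -24 bp in each library, and 62.8% lay upstream. Within 150 bp of the TSS were 56.0% and 55.8% of lncRNA promoter peaks, against 66.8% of protein-coding ones. The 100 bp upstream of the TSS alone held 32.9% and 32.0% of the peaks, although the window spanned 500 bp on each side.

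**Figure D3:**
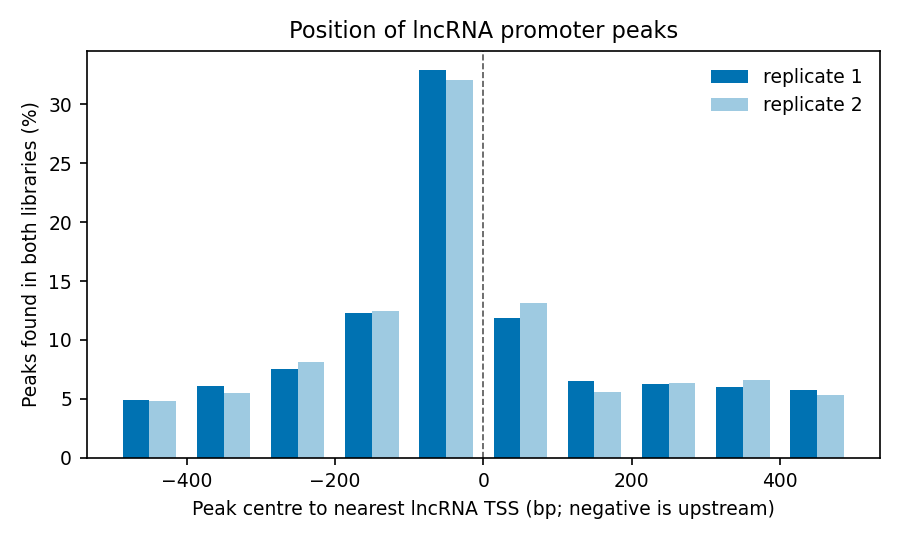
Share of lncRNA promoter peaks found in both libraries (vertical axis, percent) by distance of the peak centre from the nearest lncRNA TSS (horizontal axis, 100 bp bins, negative upstream), with a bar for each replicate. The bin just upstream of the TSS holds 32.9% and 32.0%, and every other bin holds under 14%.

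The regions lay far from protein-coding starts, with a median distance of 31420 bp. In 304 regions (20.3%) the distance was over 100 kb, and in 354 (23.7%) it was at most 10 kb. Outside any protein-coding gene body lay 1169 regions (78.2%), 273 lay within a body on its opposite strand and 50 on the same strand, and 3 had bodies on both strands. Of antisense regions 66.1% were inside a protein-coding body, and of lincRNA regions 4.63%. Values within a body on the opposite strand (medians 52 and 46) were close to those outside (51 and 47).

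Hotspots are the wider regions of raised cleavage that the authors deposited with a −log10 of the q-value. Hotspots covered 1474 of the 1495 regions in both libraries. By peaks, 98.1% and 97.8% at lncRNA promoters lay in a hotspot, near the 98.7% of all peaks with a partner in each library. The median width of the hotspot was 331 and 320 bp at lncRNA promoters, 617 and 638 bp at protein-coding promoters, and 258 and 249 bp at distal peaks. In the deposited lists the −log10 value is 100 at its ceiling, which 54.5% and 46.3% of lncRNA promoter peaks reached, against 74.5% and 70.3% of protein-coding ones. Of distal peaks 44.0% and 34.6% reached the ceiling, and of all peaks with a partner 50.5% and 42.4%. The widest hotspots at lncRNA promoters covered the regions of Gm31763 (2770 and 2827 bp), 2410080I02Rik (2382 and 2937 bp) and G730013B05Rik (2078 and 2176 bp). Repeat sequence made up at least 50% of the peak in 29 regions, and their median values were 39 and 34, against 52 and 47 in the rest. By peaks, the share with this much repeat was 2.21% and 1.95% at lncRNA promoters and 1.09% and 1.12% at protein-coding promoters. It was 5.79% and 5.60% at distal peaks and 4.65% and 4.53% among all peaks with a partner.

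Motif shares at lncRNA promoters lay between those of protein-coding promoters and distal peaks for most of the 15 motifs. The GC box (GGGCGG), bound by Sp1 and related factors, was in 15.9% of lncRNA promoter peaks (SD 0.06, n = 2 libraries), 45.2% of protein-coding promoter peaks, 5.72% of distal peaks and 14.4% of all peaks. Within CpG-rich peaks the shares were 51.4% at lncRNA promoters and 58.4% at protein-coding promoters. CCAAT was in 18.4%, 21.8% and 16.5% of lncRNA promoter, protein-coding promoter and distal peaks, and in 17.5% of all peaks. Regions with a GC box had median values of 65.5 and 63, above the 49 and 44 of regions without one.

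Further motifs were measured in the same way. The GATA motif (AGATAA), bound by factors of that name, was in 7.24% of lncRNA promoter peaks, 2.81% of protein-coding promoter peaks, 9.53% of distal peaks and 7.94% of all peaks. TEAD (GGAATG) was in 11.3%, 6.45%, 12.3% and 10.9% of these sets. The MEF2 motif, named for factors of muscle gene control, was in 3.18%, 1.09%, 4.85% and 3.92%, and CTCF, an insulator protein's motif, in 3.86%, 1.17%, 5.71% and 4.61%. ETS (CCGGAAG) ran the other way, with 5.39%, 9.29%, 1.33% and 3.02%. Without a split by CpG content, AP-1 (TGACTCA) and the CArG box were the exceptions to the middle place in the mean of the 2 libraries. The CArG box is the site of serum response factor. YY1 (AAGATGGCG) was level with distal peaks in the mean (0.162% against 0.161%) and below them in replicate 2 (0.130% against 0.161%). AP-1 was in 7.66% of lncRNA promoter peaks, 2.40% of protein-coding promoter peaks, 6.66% of distal peaks and 5.71% of all peaks. The CArG box was in 1.36%, 0.648%, 0.961% and 0.904% of these sets. The sets differ in CpG content, and the order did not hold for every motif within a CpG class. Among CpG-poor peaks ETS was in 4.65% of lncRNA promoter, 3.50% of protein-coding promoter and 1.27% of distal peaks. GATA kept its middle place there, with 8.30%, 5.76% and 9.67%.

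**Figure D4:**
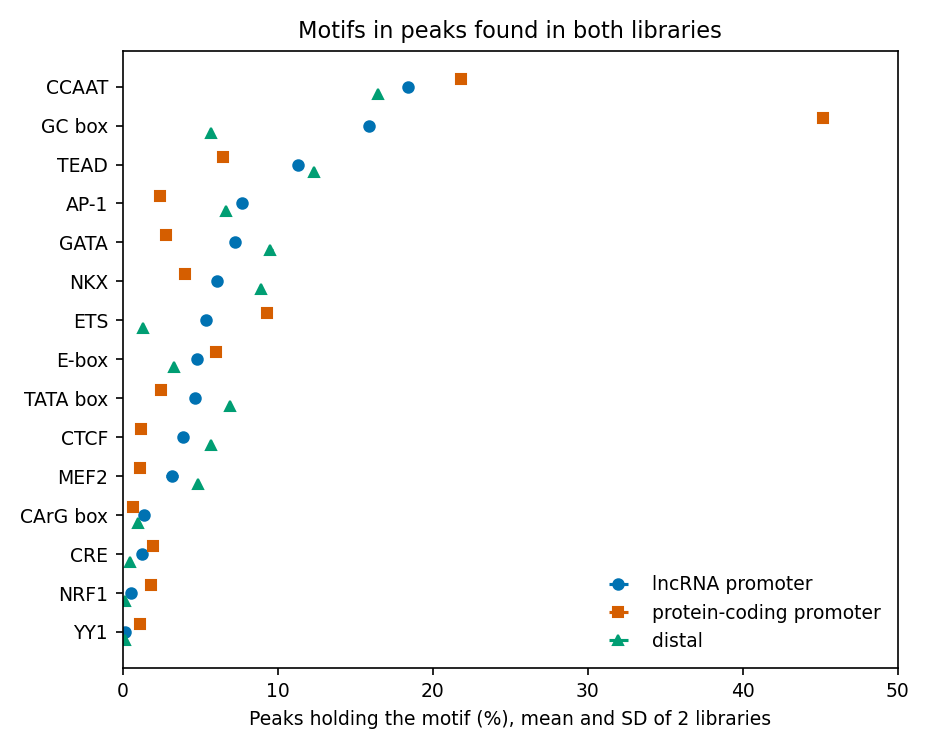
Share of peaks found in both libraries that hold each of the 15 motifs (horizontal axis, percent, mean with SD of 2 libraries as bars, which are mostly narrower than the symbols) for lncRNA promoters, protein-coding promoters and distal peaks. The GC box separates the sets most, at 15.9%, 45.2% and 5.72%.

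The 10 highest regions all had a mean percentile above 99 in the 2 libraries. The highest was at 1700096K18Rik, a lincRNA 13684 bp from the nearest protein-coding TSS (Cct8l1), with values of 132 and 126 (mean 129, SD 4.24). Gm13421 followed with 127 and 122, 1810026B05Rik with 128 and 118, and 4833417C18Rik with 123 and 119. Most carry only clone or gene-model names, and 9 of the 10 have a CpG ratio above 0.6. The exception is Gm5444, with values of 120 and 114 at a ratio of 0.192 and 162437 bp from the nearest protein-coding TSS, Akr1e1. Gm10433 had 121 and 115, and 2410080I02Rik (116 and 119) lay 6175 bp from Klf9. The remaining 3 were Gm33195 (116 and 117), 6720427I07Rik (113 and 122), which hosts let-7 miRNAs, and AA465934 (119 and 111), which hosts the snoRNA Snord7. At the other end stood Gm12963 (6 and 8), Gm30931 (6 and 8), Gm37280 (8 and 4), Gm13645 (5 and 6) and an internal start of Zswim6 (6 and 5).

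Of lncRNAs studied in heart or muscle, 18 listed symbols were in the annotation and 7 were members. Tbx3os1, an antisense neighbour of the T-box gene Tbx3, had 111 and 98 at 95398 bp from the nearest Tbx3 TSS. Its fellow Tbx3os2 had 51 and 44 at 11062 bp. Hand2os1, transcribed away from the heart transcription factor gene Hand2, had 83 and 80 at a start 6532 bp from Hand2. Peaks at TSSs of Hand2os1 reached 120 and 103, but these were not part of a member region. Dubr, studied in muscle differentiation, had 82 and 95. Pvt1, a neighbour of Myc, had 2 regions, of 71 and 61 at 111569 bp from Myc and of 44 and 39 at 50629 bp. Dnm3os, host of miR-199a-2 and miR-214, had 67 and 58, and Bvht, known as Braveheart from work on cardiac commitment of stem cells, had 53 and 55. By their highest region 6 of the 7 were above the median of lncRNA promoters in both libraries, and Tbx3os2 was equal to it in replicate 1 and below it in replicate 2.

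The other 11 listed symbols of this group were not members. Mhrt, Irx3os, Mirt2 and Gm29015 have all TSSs within 2 kb of a protein-coding TSS, Wt1os and Mirt1 had peaks in both libraries that did not meet the rule, and Fendrr, Miat and Sox2ot had no peak within 500 bp of a TSS. Carmn, the host of miR-143 and miR-145, had a peak of 41 in replicate 1 alone, and Chaer1 a peak of 37 in replicate 1 alone. The host of the muscle miRNAs miR-1a-2 and miR-133a-1, annotated as Mir133a-1hg, was a member with values of 40 and 30, below the medians.

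Imprinted lncRNAs are expressed from the maternal or the paternal chromosome alone, and 6 of 10 listed were members. Airn, which silences Igf2r in cis, had 109 and 105 within the Igf2r body. Kcnq1ot1, which acts likewise in the Kcnq1 domain, had 89 and 77, and Nespas, antisense in the Gnas locus, had 75 and 69. Peg13 had 3 regions, the highest at 73 and 71. H19 had 59 and 48, and Meg3 had 43 and 42, the lowest of the 6. Rian, Nctc1 and Snhg14 had no peak, and Mirg had a peak of 7 in replicate 2 alone, so that of the listed genes downstream of Meg3 in its domain, Rian and Mirg, neither was a member.

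Of 33 widely studied lncRNAs in the annotation, 18 were members. By their highest region, the snoRNA hosts Snhg8 (117 and 112), Snhg6 (114 and 110), Snhg15 (106 and 108) and Snhg5 (99 and 96) were high in each library. The second regions of Snhg6 (42 and 30), Snhg15 (43 and 40) and Snhg5 (32 and 23) were below the medians of all member regions. The highest region of Dancr had 104 and 119, and that of Dleu2 106 and 114. The lower of 2 regions at starts of Neat1, the scaffold RNA of paraspeckles, had 97 and 92, and Malat1, an abundant nuclear RNA, had 98 and 77. Trp53cor1 (54 and 56), Dlx6os1 (57 and 49) and Lncpint (53 and 51) were near the median. Hotair, expressed from the HoxC cluster in posterior tissues, had no peak within 500 bp of a TSS, and Rmst, known from neural cells, had a peak of 21 in replicate 2 alone. Over all eligible lncRNA genes the share with a region was 17.4%, as given above, and the 3 lists were chosen with earlier results of these data known. The denominators differ, because that share leaves out genes with all TSSs within 2 kb of a protein-coding TSS. The list totals include such genes, 4 in the heart or muscle list and 8 in the widely studied list. The widely studied list also held 1 gene of another type or chromosome.

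**Figure D5:**
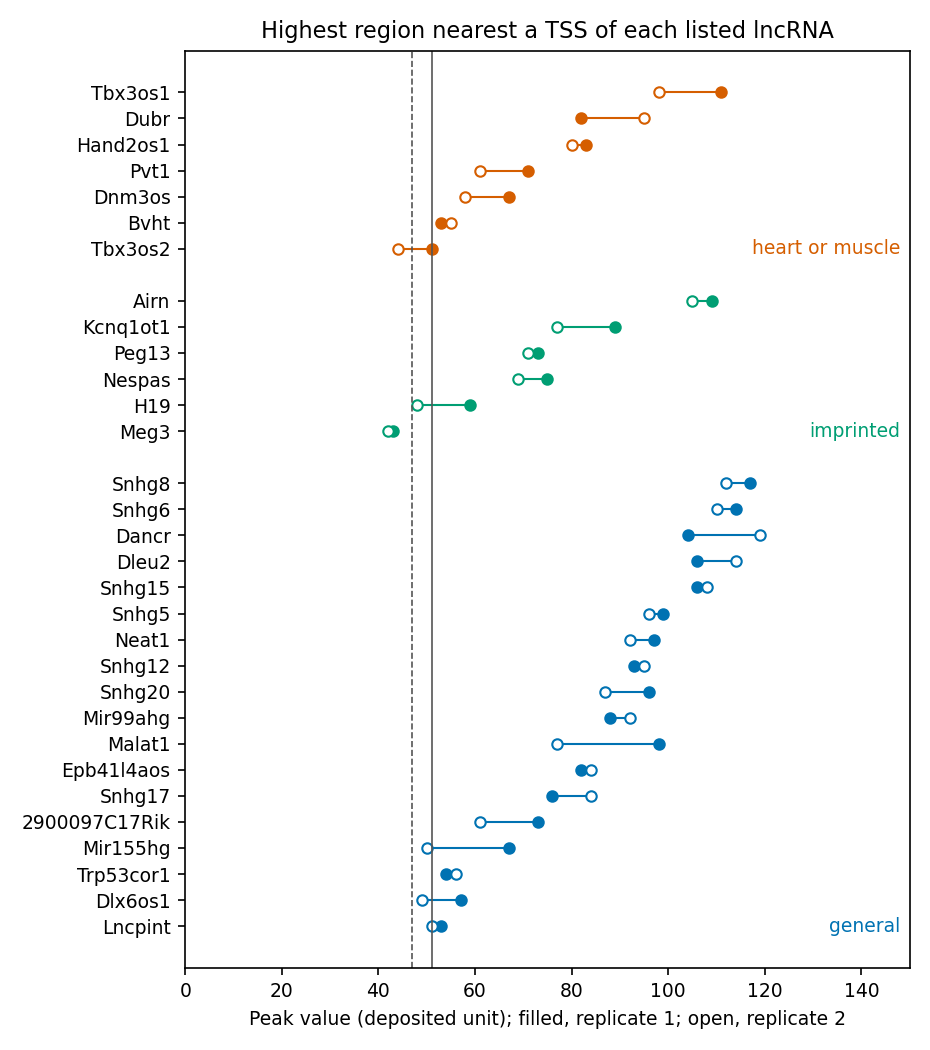
Deposited peak value (horizontal axis) of the highest region nearest a TSS of each listed lncRNA that is a member, for replicate 1 (filled) and replicate 2 (open), in 3 groups of genes. The vertical lines mark the medians of all lncRNA promoter peaks, 51 (solid, replicate 1) and 47 (dashed, replicate 2). Of the genes shown, Meg3 alone is below the median in both libraries.

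Host genes of small RNAs had a region more often than lncRNA genes at large, in 39 of 95 miRNA hosts (41.1%) and 18 of 58 snoRNA hosts (31.0%), against 17.4%. The number of TSSs per gene was not matched in this comparison. The genes with the most regions were 3110039I08Rik with 8 and Mir99ahg with 6, which host paralogous miRNA clusters. Over the 8 regions of 3110039I08Rik the lowest and highest values were 44 and 94 in replicate 1, with 33 and 90 in replicate 2. Over the 6 regions of Mir99ahg they were 40 and 89 in replicate 1, with 42 and 92 in replicate 2. Dleu2 had 4 regions, the highest at 106 and 114. The mature miRNAs of these hosts and of 6720427I07Rik are shown to display the shared seeds, taken from RefSeq GRCm38.p6 with bases 2 to 8 (the seed, which pairs with targets) in capitals.
let-7a-5p (6720427I07Rik): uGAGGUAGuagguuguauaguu
let-7d-5p (6720427I07Rik): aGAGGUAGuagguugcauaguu
let-7f-5p (6720427I07Rik): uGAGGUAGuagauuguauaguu
let-7c-5p (Mir99ahg): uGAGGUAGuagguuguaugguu
miR-100-5p (3110039I08Rik): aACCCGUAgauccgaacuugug
miR-99a-5p (Mir99ahg): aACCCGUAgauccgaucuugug
miR-125b-5p (3110039I08Rik and Mir99ahg): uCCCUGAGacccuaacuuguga
miR-15a-5p (Dleu2): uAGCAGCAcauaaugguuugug
miR-16-5p (Dleu2): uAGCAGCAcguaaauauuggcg

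The 4 let-7 miRNAs shown have 1 seed, miR-100 and miR-99a have another, and miR-15a and miR-16 have another. The mature miR-125b is the same from Mir125b-1 in 3110039I08Rik and Mir125b-2 in Mir99ahg. Of 52 miRNA genes within member hosts, 36 were matched to a mature sequence in the RefSeq table. Chromosome 18 was left out of this matching, so miRNA genes there, such as those of Mir133a-1hg, count as unmatched. Other high hosts were Gm20732 of Mir30d (118 and 107) and Gm4258 of Mir181a-1 and Mir181b-1 (111 and 92), and among snoRNA hosts 2410006H16Rik (110 and 109). Lncppara, host of Mirlet7b and Mirlet7c-2, had regions of 79 and 78 and of 56 and 57.

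A list of 120 genes held genes of heart development, contraction and conduction, together with growth, cell-cycle and immediate-early genes such as Fos, Myc and Cdkn1c, and 31 of them (25.8%) were the nearest protein-coding gene of at least 1 region, against 1097 of all 20780 protein-coding genes (5.28%). This is a description, with no test and no matching for the size of the flanks. The 49 regions had median values of 55 and 53, 7 were CpG-rich and 11 lay within 20 kb of the listed gene's TSS. The highest were 2 regions of 1700113A16Rik (120 and 108, and 115 and 99), at 9899 and 9479 bp from Mef2d, a transcription factor of muscle genes. Gm40477 near Fos had 114 and 96, and B230312C02Rik near Gata5 had 102 and 98.

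Others had a gene of the cardiac programme as their nearest protein-coding gene, at distances that varied widely. Gm15873 had 94 and 99 at 2282 bp from the cardiac troponin I gene Tnni3, within Dnaaf3 on the opposite strand. Gm20468 had 97 and 89 at 16602 bp from Nkx2-5, the cardiac homeobox gene, and Gm12295 had 99 and 89 at 96002 bp from Myocd, which encodes the coactivator myocardin. Gm28821, inside the potassium channel gene Kcnq1 on the opposite strand, had 95 and 88, a CpG ratio of 0.106 and a MEF2 motif. Around Hand2, besides Hand2os1, stood Gm34030 (82 and 70) and 5033428I22Rik (77 and 65), and Gm49390 near Gata4 had 82 and 62. Outside the list, the antisense gene Gm49540 had 116 and 107 at 7952 bp from Mb, the myoglobin gene.

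Not every annotated lncRNA start was free of protein-coding evidence. RefSeq placed an mRNA start on the same strand within 500 bp of 47 regions (3.14%), with a curated record at 29 of them, for example at Zswim6 (110 and 111), Tctn2 (109 and 101), Lsmem2 (98 and 89), Trerf1 (71 and 67) and Ptpmt1 (70 and 88). Of these 47 regions 36.2% were CpG-rich. Without them 1448 regions remained, with medians of 51 and 47 and 15.5% CpG-rich.

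At the 500 bp limit the medians inside and outside were close, and at the 2 kb limit they were higher inside than outside. Peaks centred over 400 and up to 500 bp from an lncRNA TSS had medians of 48 (162 peaks) and 44 (156), and those over 500 and up to 600 bp 46.5 (140) and 45 (139). Members at 2 to 2.5 kb from a protein-coding TSS had medians of 62 (31 peaks) and 55.5 (30), and peaks left out at 1.5 to 2 kb had 48.5 (42) and 43.5 (42). Among single peaks of replicate 1, 4930431P22Rik at 500 bp (value 53) was just inside and 4833413E03Rik (value 34) just outside, and Gm11752 at 2005 bp from Tbc1d16 (value 83) was just inside and A830082K12Rik at 1994 bp from Nr2f1 (value 77) just outside.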

How the data were processed

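DNase-seq peaks and hotspots of 2 newborn heart libraries were analysed. Per a deposited text file, both were called for each replicate on its own, from filtered mm10 alignments. The aligner, the caller and its thresholds were not given in the sources used here. The peak lists deposited by the authors hold 1 signal value per 150 bp peak with no normalization stated, and the hotspot lists deposited by the authors hold a −log10 of the q-value, which starts at 1.30 and is 100 at its ceiling. Values are not shown to be scaled for depth, so percentiles within a library are given beside them, and read totals are unknown, so no interval from counts was computed.

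TSSs are all transcript starts of GENCODE vM21, and the 5 gene types are lincRNA, antisense, bidirectional_promoter_lncRNA, sense_intronic and processed_transcript. Overlapping qualifying peaks of both libraries were joined into regions, each assigned to the gene of the nearest TSS. Values, CpG content and motifs of sets were computed on the peaks of each library with a partner, around the peak centre and not the region centre as planned. CpG and motifs were read from RefSeq GRCm38.p6, whose chromosome lengths were checked against the files. Further motifs are CRE (TGACGTCA), NRF1 (GCGCATGCG), YY1 (AAGATGGCG), NKX (TNAAGTG) and E-box (CACGTG), and MEF2, CTCF and the CArG box, searched as longer patterns with ambiguous letters, are given by name alone. Motifs may overlap one another. A host holds the small RNA gene within its body on the same strand.

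The regions and gene lists were chosen with earlier results of these data known. Named genes are the listed lncRNAs, the 10 highest, 5 lowest and 5 most different regions, the widest hotspots, the 3 highest of each type, the genes with the most regions, the highest near genes of the heart list, the highest hosts, and the peaks next to each limit; other hosts, Gm49390, Gm34030, 5033428I22Rik, Mir133a-1hg and the genes with RefSeq mRNA starts were chosen after their values were seen. Some results of the named set are not reported here. The overlap and region steps were tested on simulated data. Python 3.11.15, numpy 2.4.6, pandas 2.3.3 and scipy 1.17.1 were used. Alternatives changed the windows, overlap, TSS set, gene types, height and CpG window, or left out a library.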

Additional observations from a re-analysis of the deposited data

How the results depend on the processing

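The number of regions (1495) and their median value (49) kept within their limits of 1.5 times and 1 SD under all alternatives but those named here. With the higher-valued peaks alone (above each library's median) there were 967 regions, with a median value of 61, a gene share of 11.4%, a CpG ratio of 0.389 and 83.3% of peaks found in both libraries. The gene share (17.4%) was 13.4% at 250 bp, 22.5% at 1 kb and 16.0% with gene 5′ ends alone. The CpG ratio (0.345) was 0.357 at 250 bp, 0.325 at 1 kb, 0.350 and 0.342 with protein-coding TSSs over 1 and 5 kb away, 0.347 with a 75 bp overlap, 0.348 with 5′ ends, 0.336 without processed transcripts and 0.370 in 200 bp windows, beyond a spread between libraries of 0.000719. The share found in both libraries (77.8%) was 72.7% with a 75 bp overlap. The cause of these shifts was not tested.

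In replicate 1 or 2 alone, with no partner required, values of the median peak were 41 to 43, the gene share 19.8% to 21.3%, the CpG ratio 0.332 to 0.339 and the peaks numbered 1903 to 2060, and no share found in both can be given. Leaving out regions at RefSeq mRNA starts was chosen after seeing the data (1448 regions, median 49). GC box shares ran from 13.7% to 19.7%. No paired analysis was possible because the series has 1 group. Unknown depth limits any reading of a peak present in 1 library alone.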

Other observations

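Chromosome X was outside the rule. By the same distances it held 43 qualifying peaks in replicate 1 and 40 in replicate 2, which formed 27 regions at 19 genes with median values of 50 and 49, close to those of the other chromosomes. The highest were at Ftx (104 and 103) and 5730405O15Rik (104 and 97). Jpx had 79 and 85, Firre 88 and 64, and Tsix 13 and 14. Ftx, Jpx and Tsix are lncRNA genes of the X inactivation centre, and Firre is a nuclear lncRNA of the X chromosome.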
